A study of Homo sapiens with 9 samples.

Results

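Cohesin and condensin are ring-shaped protein complexes that hold and fold chromosomes, and the transcripts of 10 of their subunits were followed in HepG2 cells depleted of TRIB3, a pseudokinase of the stress response. The subunits were taken by gene symbol and not by a cut on their values, but with earlier results of these data known. They comprised 4 cohesin genes (SMC1A, SMC3, RAD21 and STAG2) and 6 condensin genes (SMC2, SMC4, NCAPD2, NCAPG, NCAPH and NCAPD3) among 24204 gene symbols, and all 10 passed the filter on low values that left 11265 genes to test. HepG2 is a human liver cancer cell line. A lentivirus delivered either a control hairpin (shCtrl) or one of the TRIB3 hairpins, shTRIB3-1 and shTRIB3-2, to make 3 groups of 3 libraries, 9 in all. Infection lasted 48 h and puromycin selection another 48 h, so each library came from a population of infected and selected cells rather than a clone, and the control cells carried the same kind of virus and drug. The hairpins were expressed from pLKO.1, and no source used here says whether the libraries of a group came from separate cultures, so p-values may measure only technical spread. The labels describe high-glucose medium with serum. The study's methods describe RNA from cells deprived of glutamine, in a passage shared with its glutamine withdrawal experiment. Its discussion describes repair genes perturbed by TRIB3 depletion without glutamine deprivation. The methods do not give the medium at harvest for these libraries alone, so it remains uncertain.

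Both complexes are built on a pair of SMC proteins, long coiled-coil ATPases that dimerise, and on a kleisin, the subunit that closes the ring. In cohesin the pair is SMC1A and SMC3, the kleisin is RAD21, and STAG2 or STAG1 binds the kleisin. Cohesin holds sister chromatids together from replication until anaphase and extrudes the chromatin loops of interphase, so it is needed in dividing and non-dividing cells. Condensin compacts chromosomes for mitosis. Its SMC2 and SMC4 pair is shared by condensin I, which adds NCAPD2, NCAPG and NCAPH, and by condensin II, which adds NCAPD3, NCAPG2 and NCAPH2.

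The hairpin targets are shown because each knockdown rests on 1 of them. Each is an exact match of 21 bases in the plus strand of TRIB3 (GRCh38), within coding exon sequence, and the capitals mark the bases of the target.
shTRIB3-1, chr20:388072-388092: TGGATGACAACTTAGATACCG
shTRIB3-2, chr20:391473-391493: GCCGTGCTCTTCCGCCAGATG
The first target lay in 4 of 4 annotated TRIB3 transcripts and the second in 3 of 4.

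Promoter sequence was read next, because the 6 condensin transcripts moved together in the comparisons that follow. The windows are those of RefSeq (GRCh38.p14), which run from 250 bases before to 50 bases after an annotated start. NCAPG, NCAPD2, NCAPH, SMC2, SMC4, NCAPD3, SMC1A, SMC3 and STAG2 had entries. RAD21 had none. Windows were searched on both strands for TTTGAA, the core of the cell cycle genes homology region (CHR), an element known from promoters of genes expressed in G2 and mitosis. A match was found for 5 of the 6 condensin genes, in 5 of their 9 windows, and for 1 of 3 cohesin genes, in 1 of 6 windows. Among all entries, 15.2% of 35116 windows and 18.2% of 27305 genes held it. The matches are printed 5′ to 3′ along the gene, with TTTGAA or its reverse complement in capitals, so that the 5 condensin stretches can be set beside that of SMC3.
SMC2, chr9:104094279-104094338, plus strand: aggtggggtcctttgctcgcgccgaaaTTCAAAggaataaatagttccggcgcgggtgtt
SMC4, chr3:160399548-160399607, plus strand: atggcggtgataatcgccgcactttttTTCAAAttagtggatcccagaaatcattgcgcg
NCAPD2, chr12:6493930-6493989, plus strand: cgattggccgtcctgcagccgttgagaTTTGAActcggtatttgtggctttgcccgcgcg
NCAPG, chr4:17810917-17810976, plus strand: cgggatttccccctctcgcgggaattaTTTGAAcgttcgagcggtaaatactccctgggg
NCAPD3, chr11:134223938-134223997, minus strand: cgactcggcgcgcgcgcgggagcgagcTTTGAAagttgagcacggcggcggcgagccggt
SMC3, chr10:110567517-110567576, plus strand: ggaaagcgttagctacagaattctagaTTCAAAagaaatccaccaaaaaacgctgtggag

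The first base of the match lay 3 bases before the start in SMC2 and in the second of the NCAPD3 windows, 35 bases before it in NCAPG, 75 in SMC4, 145 in NCAPD2 and 151 in SMC3. No window of NCAPH, SMC1A or STAG2 held these letters. NCAPH held 1 CCAAT box, the motif bound by the factor NF-Y, 112 bases before its start. It is printed here as the condensin gene that had no CHR match, with CCAAT in capitals. NCAPD2 and NCAPD3 held CCAAT as well as a CHR match.
NCAPH, chr2:96335627-96335685, plus strand: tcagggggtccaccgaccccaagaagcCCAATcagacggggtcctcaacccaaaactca
CCAAT was found for 3 of 6 condensin genes and 1 of 3 cohesin genes, against 39.7% of all genes, and in 3 of 9 and 2 of 6 of their windows, against 34.6% of all windows. A site for E2F factors, written TTTGGCGC, TTTCGCGC, TTTCCCGC or TTTGCCGC, was found for 3.99% of all genes and in 3.31% of all windows, for 1 of 6 condensin genes (NCAPD3, in 1 of 9 windows) and for 2 of 3 cohesin genes (SMC1A and STAG2, in 2 of 6 windows). The G-quadruplex pattern was 4 runs of at least 3 guanines with short gaps. It is stricter than the motif search of the study, which allowed runs of 2 guanines and longer gaps. It was found for 27.9% of all genes and in 25.0% of all windows. Among the members it was found for 2 of 6 condensin genes (SMC2 and NCAPD3, in 2 of 9 windows) and for 1 of 3 cohesin genes (STAG2, in 2 of 6 windows). No CHR match of a member shared a base with a match to another motif. These are matches of letters and no test was run on them.

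Levels are given as FPKM, fragments scaled for gene length and for the depth of the library, which ran from 34206726 to 36311029 fragments. The 3 replicates of each group correlated at 0.996 to 0.997 over the tested genes. TRIB3 itself stood at 67.9, 65.8 and 66.6 FPKM in the shCtrl libraries, 34.1, 32.7 and 34.0 with shTRIB3-1 and 20.6, 20.7 and 20.4 with shTRIB3-2. The targeted transcript was thus lower in all 6 knockdown libraries, and lower with shTRIB3-2 than with shTRIB3-1 (log2 difference -0.71 ± 0.0301, adjusted p = 9.54e-09). In the values that follow ± is an SD over 3 libraries beside a level and a standard error from the fit beside a log2 fold change. The summed FPKM of 8 hepatocyte markers was 7372 to 7875 in shCtrl, 6883 to 7272 with shTRIB3-1 and 9069 to 9262 with shTRIB3-2, and most of it was ALB. Singly, 5 of the 8 were lower and 1 higher with shTRIB3-1, and 2 lower and 4 higher with shTRIB3-2. None of 6 fibroblast or 5 endothelial markers passed the filter, and of 6 immune markers only CD68 and LYZ did, at means of 34.3 and 729 FPKM over the 9 libraries. The immune sum, nearly all LYZ, was 1056 to 1178 FPKM in shCtrl, 532 to 559 with shTRIB3-1 and 612 to 651 with shTRIB3-2, and LYZ was called lower with shTRIB3-1 (log2 fold change -1.085). PTPRC, the defining leukocyte marker, was at a mean of 0.000987 FPKM and the T cell marker CD3E at 0.00465. The part of these markers in the results was not tested.

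TRIB3 knockdown was accompanied by lower transcript levels of all 6 condensin subunits with both hairpins, and of 3 of the 4 cohesin subunits. A gene was taken to have passed at a limma adjusted p under 0.05 over all tested genes. With shTRIB3-1, 9 of 10 members fell and none rose, where 41.5% of tested genes fell and 32.9% rose. With shTRIB3-2, 9 members fell and none rose, against 40.5% and 35.4% of tested genes. The exception was STAG2 with each hairpin. With a log2 fold change under -1 as well, the 6 condensin genes and RAD21 were called with each hairpin, 7 of 10 members, against 6.1% of tested genes with shTRIB3-1 and 6.27% with shTRIB3-2. The median log2 fold change of the condensin genes was -1.65 with shTRIB3-1 and -2.59 with shTRIB3-2, that of the cohesin genes -0.58 and -0.64, and that of all tested genes -0.06 and -0.03. The 3 shCtrl libraries served both comparisons, so the counts for shTRIB3-1 and shTRIB3-2 are not independent.

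**Figure D1:**
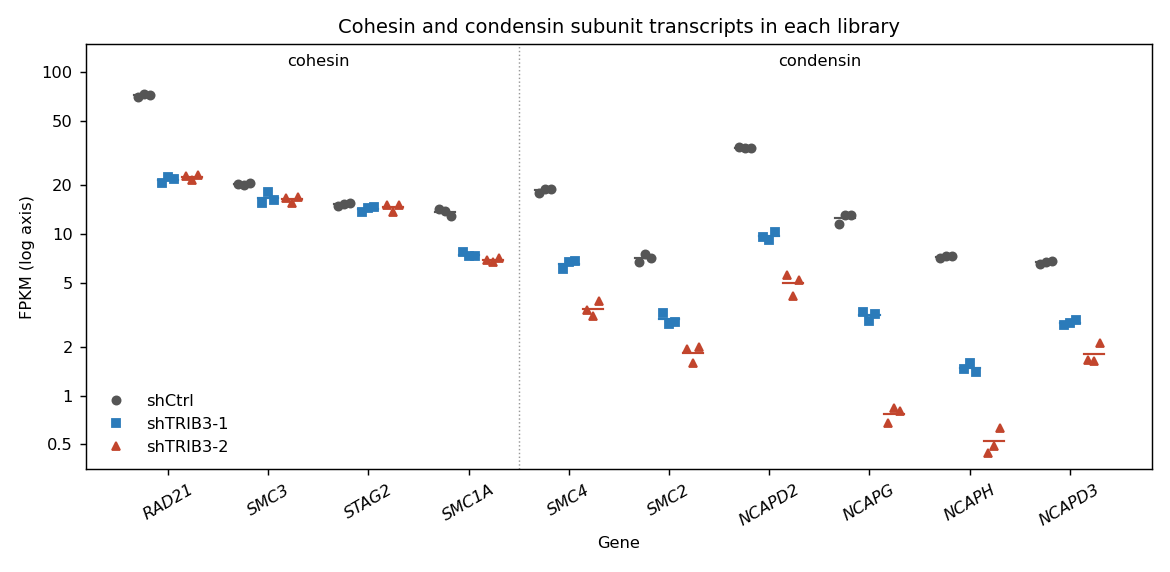
FPKM of the 4 cohesin and 6 condensin genes on a log axis, with 1 point per library, 3 libraries per group and a short line at each group mean. In all 6 condensin genes the shTRIB3-2 libraries lie below the shTRIB3-1 libraries, which lie below shCtrl, whereas RAD21 drops to 21.7 and 22.6 FPKM from 72.2 with little between the hairpins and STAG2 stays between 13.7 and 15.7 in all 9 libraries.

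RAD21, the cohesin kleisin that separase cleaves to let sister chromatids part, had the highest FPKM of the 10 transcripts in every group. This place depends on the gene lengths behind the FPKM, 3660 bases for RAD21 and 5522 for SMC3. With shTRIB3-1 RAD21 held 2598 to 2824 fragments per library and SMC3 2938 to 3468. Its FPKM was 70.8, 73.3 and 72.6 in shCtrl, 20.7, 22.5 and 21.8 with shTRIB3-1 and 22.97, 21.6 and 23.2 with shTRIB3-2. Every knockdown library lay below every control library, and the ranges of the hairpins overlapped. RAD21 fell to 30.04% of its control level with shTRIB3-1 (log2 fold change -1.73 ± 0.0391, adjusted p = 5.79e-12) and to 31.3% with shTRIB3-2 (-1.67 ± 0.0391, adjusted p = 4.46e-12). Between the hairpins the log2 difference was 0.06, with a 95% interval of -0.03 to 0.14 (adjusted p = 0.251), beside -0.71 for TRIB3.

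The other cohesin subunits changed less. SMC1A, one of the SMC ATPases of the ring, stood at 14.4, 13.8 and 12.9 FPKM in shCtrl, 7.71, 7.33 and 7.35 with shTRIB3-1 and 6.93, 6.68 and 7.10 with shTRIB3-2, and its 3 groups did not overlap. It fell by 0.87 ± 0.0499 with shTRIB3-1 on the log2 scale (adjusted p = 1.18e-08) and by 0.98 ± 0.0499 with the other hairpin (adjusted p = 3.2e-09). The difference between hairpins was -0.11 (95% interval -0.22 to -0.00197, adjusted p = 0.0899), and it passed after median centring (adjusted p = 0.0302) and quantile normalization (adjusted p = 0.0303) among the 18 alternatives.

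SMC3, its partner ATPase, was at 20.3, 20.1 and 20.7 FPKM in shCtrl, 15.5, 18.3 and 16.3 with shTRIB3-1 and 16.8, 15.5 and 17.0 with shTRIB3-2. All 6 knockdown libraries lay below the 3 controls, and the hairpins overlapped. The fall was small, to 82.0% of control with shTRIB3-1 (log2 fold change -0.29 ± 0.0575, adjusted p = 6.65e-04) and to 80.6% with shTRIB3-2 (-0.31 ± 0.0575, adjusted p = 3.53e-04). The hairpins differed by -0.02 on the log2 scale (95% interval -0.15 to 0.10, adjusted p = 0.773).

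STAG2, the accessory subunit that anchors cohesin at many of its sites, was at 14.999, 15.4 and 15.7 FPKM in shCtrl, 13.7, 14.6 and 14.7 with shTRIB3-1 and 15.1, 13.7 and 15.1 with shTRIB3-2. The shTRIB3-2 libraries overlapped the controls and the shTRIB3-1 libraries lay just below them. Neither comparison passed, with log2 fold changes of -0.10 (95% interval -0.20 to 0.01, adjusted p = 0.0819) and -0.07 (95% interval -0.17 to 0.03, adjusted p = 0.192), and the hairpins differed by 0.03 (95% interval -0.08 to 0.13). The first of these passed with voom on recovered fragments (adjusted p = 0.0416), after TPM rescaling (adjusted p = 0.0273) and without shTRIB3-2 replicate 2 (adjusted p = 0.0434). Its paralog STAG1, which takes the same place in the complex, was at 9.34 ± 0.165 FPKM in shCtrl, 6.97 ± 0.0971 with shTRIB3-1 and 7.83 ± 0.270 with shTRIB3-2. STAG1 fell with both (log2 fold changes -0.42 and -0.25, adjusted p = 3.03e-06 and 2.28e-04) and was higher with shTRIB3-2 than with shTRIB3-1 (0.17, adjusted p = 0.00906). The meiotic subunits STAG3, REC8 and RAD21L1 did not pass the filter, and SMC1B was not analysed here.

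The shared condensin ATPases fell further with shTRIB3-2. SMC4 was at 18.05, 18.98 and 19.04 FPKM in shCtrl, 6.12, 6.76 and 6.81 with shTRIB3-1 and 3.40, 3.10 and 3.85 with shTRIB3-2. SMC2 was at 6.73, 7.55 and 7.08 in shCtrl, 3.25, 2.79 and 2.85 with shTRIB3-1 and 1.96, 1.59 and 1.99 with shTRIB3-2. The 3 groups were separate for both genes. SMC4 fell to 35.1% and 18.5% of its control level (log2 fold changes -1.50 ± 0.0725 and -2.41 ± 0.0725, adjusted p = 2.5e-09 and 3.44e-11). SMC2 fell to 41.6% and 25.9% (-1.24 ± 0.0928 and -1.90 ± 0.0928, adjusted p = 1.3e-07 and 2.23e-09).

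The condensin I subunits showed the widest changes. NCAPD2, a HEAT-repeat subunit of condensin I, was at 34.5, 34.1 and 34.1 FPKM in shCtrl, 9.57, 9.19 and 10.3 with shTRIB3-1 and 5.58, 4.16 and 5.23 with shTRIB3-2. The groups did not overlap, and NCAPD2 fell to 28.3% and 14.6% of control (log2 fold changes -1.81 ± 0.0855 and -2.76 ± 0.0855, adjusted p = 1.93e-09 and 4.32e-11). NCAPG, the other HEAT-repeat subunit of condensin I, was at 11.5, 13.2 and 13.2 FPKM in shCtrl, 3.30, 2.92 and 3.22 with shTRIB3-1 and 0.676, 0.838 and 0.7999 with shTRIB3-2. It fell to 24.9% and then to 6.11% of control (-1.97 ± 0.0899 and -3.87 ± 0.0899, adjusted p = 1.5e-09 and 4.3e-12). Its level with shTRIB3-2 rested on 107 to 135 fragments per library, against 1905 to 2220 in shCtrl.

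NCAPH, the kleisin of condensin I, was at 7.15, 7.33 and 7.31 FPKM in shCtrl, 1.47, 1.60 and 1.40 with shTRIB3-1 and 0.445, 0.490 and 0.632 with shTRIB3-2. No control library came near a knockdown library, and the hairpins did not overlap. NCAPH fell to 20.5% and 7.19% of control (-2.21 ± 0.110 and -3.58 ± 0.110, adjusted p = 3.12e-09 and 4.1e-11), the largest fall among the members with shTRIB3-1. With shTRIB3-2 it rested on 92 to 134 fragments per library. Fold changes of NCAPG and NCAPH are understated by the added 0.1 FPKM and depend on it, since with 1 FPKM added those of shTRIB3-2 were -2.94 for NCAPG and -2.44 for NCAPH.

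NCAPD3, the condensin II counterpart of NCAPD2, was at 6.53, 6.75 and 6.84 FPKM in shCtrl, 2.74, 2.81 and 2.94 with shTRIB3-1 and 1.67, 1.64 and 2.11 with shTRIB3-2. The groups were separate. NCAPD3 fell to 42.2% and 26.97% of control (-1.22 ± 0.0886 and -1.84 ± 0.0886, adjusted p = 9.97e-08 and 1.88e-09), numerically the smallest fall of the 6 condensin genes and close to that of SMC2. Of the other condensin II subunits, NCAPG2 fell by 1.46 and 2.28 (log2; adjusted p = 3.5e-08 and 5.09e-10), from 7.72 ± 0.274 FPKM to 2.75 ± 0.0767 and 1.52 ± 0.234. NCAPH2, the condensin II kleisin, fell by 0.59 and 0.74 (adjusted p = 2.01e-07 and 2.3e-08), from 14.5 ± 0.648 FPKM to 9.60 ± 0.0394 and 8.67 ± 0.373.

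**Figure D2:**
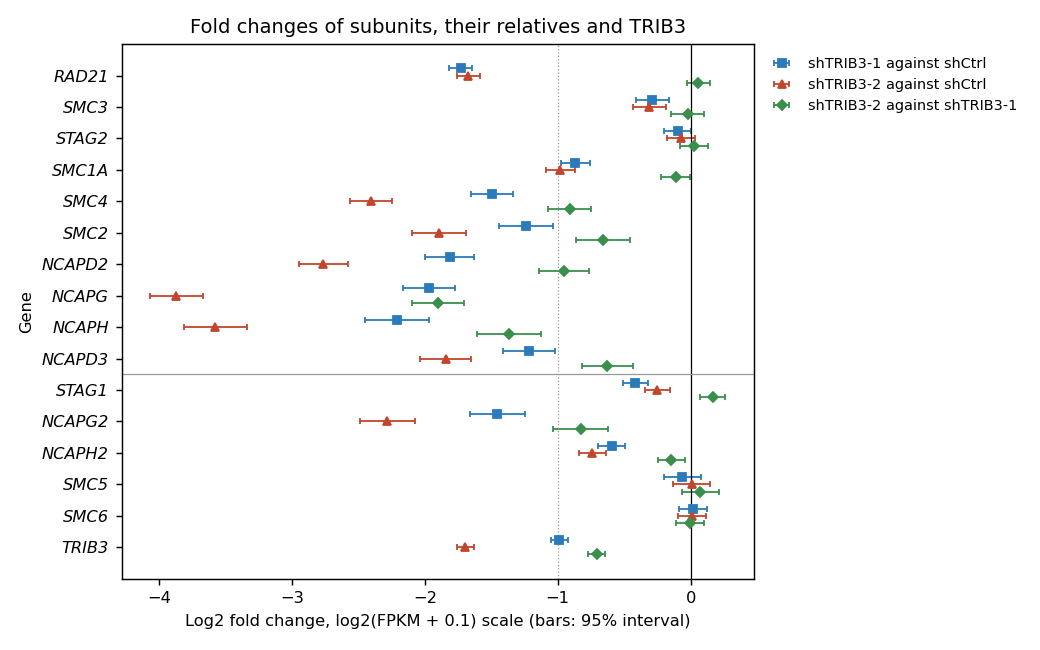
Log2 fold changes on the log2(FPKM + 0.1) scale with 95% intervals for the 10 members (above the line), for STAG1, NCAPG2, NCAPH2, SMC5, SMC6 and for TRIB3, in 3 comparisons. The direct comparison of the hairpins (diamonds) lies between -0.63 and -1.90 for the 6 condensin genes and between -0.11 and 0.06 for the 4 cohesin genes.

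The hairpins were then compared directly. All 6 condensin genes were lower with shTRIB3-2 than with shTRIB3-1 and none of the 4 cohesin genes passed, where 20.7% of tested genes were lower and 25.1% higher. The largest differences were in NCAPG (-1.90 ± 0.0899, adjusted p = 2.22e-08) and NCAPH (-1.36 ± 0.110, adjusted p = 1.57e-06), which were also under -1, as were 1.79% of tested genes. The remaining 4 ran from -0.95 in NCAPD2 to -0.63 in NCAPD3, with adjusted p values of 1.43e-06 to 1.36e-04. Outside the members, the condensin II subunits NCAPG2 and NCAPH2 differed by -0.83 (adjusted p = 2.57e-05) and -0.15 (adjusted p = 0.0229). The NCAPH2 difference did not pass with TPM rescaling (adjusted p = 0.0919). It also did not pass without any of the shTRIB3-1 replicates in turn (0.0505 to 0.0552) or without shTRIB3-2 replicate 1 (0.0955). The median difference was -0.93 in the condensin genes, 0.002 in the cohesin genes and 0.03 over all tested genes. With 1 FPKM added before the logarithm the differences in NCAPG and NCAPH shrank to -1.23 and -0.71, both still past the adjusted threshold.

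The fall changed the order of the members by FPKM, an order that depends on the gene lengths used. In shCtrl the levels ran RAD21 (72.2 FPKM), NCAPD2 (34.2), SMC3 (20.4), SMC4 (18.7), STAG2 (15.3), SMC1A (13.7), NCAPG (12.6), NCAPH (7.27), SMC2 (7.12) and NCAPD3 (6.71). The ranges of SMC1A and NCAPG overlapped, as did those of NCAPH with SMC2 and of SMC2 with NCAPD3. With shTRIB3-2 the order was RAD21 (22.6), SMC3 (16.4), STAG2 (14.6), SMC1A (6.90), NCAPD2 (4.99), SMC4 (3.45), SMC2 (1.85), NCAPD3 (1.81), NCAPG (0.771) and NCAPH (0.522), and only SMC2 and NCAPD3 overlapped. The 4 cohesin genes thus stood above all 6 condensin genes with this hairpin. With shTRIB3-1 the first 3 places were those of RAD21, SMC3 and STAG2 too, NCAPD2 (9.68) stood above SMC1A (7.46), NCAPG, SMC2 and NCAPD3 overlapped as neighbours, and NCAPH (1.49) was lowest.

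Ratios of 2 transcripts within a library show how unequal the changes were. They were chosen after the values had been seen and are a description without a test. The size of a ratio depends on the gene lengths behind the FPKM, whereas its relative change between groups does not. RAD21 stood at 3.55 ± 0.0881 times SMC3 in shCtrl, 1.30 ± 0.0634 times with shTRIB3-1 and 1.38 ± 0.0196 times with shTRIB3-2. The ratio of SMC1A to SMC3, the partners of the cohesin dimer, was 0.674 ± 0.0440, 0.449 ± 0.0478 and 0.421 ± 0.0101 in the same order. The ratio of STAG2 to SMC3 was higher in the knockdown libraries, at 0.753 ± 0.0128, 0.861 ± 0.0582 and 0.890 ± 0.00507. The knockdown libraries did not overlap the controls in any of these ratios, and those of the hairpins overlapped only for SMC1A to SMC3 and STAG2 to SMC3.

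Within condensin, counterpart subunits of complexes I and II changed by unequal amounts. NCAPD2 was at 5.11 ± 0.159 times NCAPD3 in shCtrl, 3.42 ± 0.126 with shTRIB3-1 and 2.78 ± 0.481 with shTRIB3-2, where the ranges of the hairpins overlapped. NCAPG went from 1.64 ± 0.0797 times NCAPG2 to 1.145 ± 0.0512 and 0.522 ± 0.135, so that NCAPG2 had the higher FPKM of the pair in the 3 shTRIB3-2 libraries alone. NCAPH went from 0.4999 ± 0.0161 of NCAPH2 to 0.156 ± 0.0101 and 0.06004 ± 0.00882. The ratio of NCAPD3 to SMC4 went from 0.359 ± 0.00305 to 0.432 ± 0.0159 and 0.523 ± 0.0288, whereas the ratio of NCAPG2 to SMC4 overlapped among the 3 groups at 0.413 ± 0.00708, 0.420 ± 0.0285 and 0.441 ± 0.0624. Between complexes, SMC4 to SMC3 went from 0.918 ± 0.0277 to 0.394 ± 0.0249 and 0.210 ± 0.0146.

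**Figure D3:**
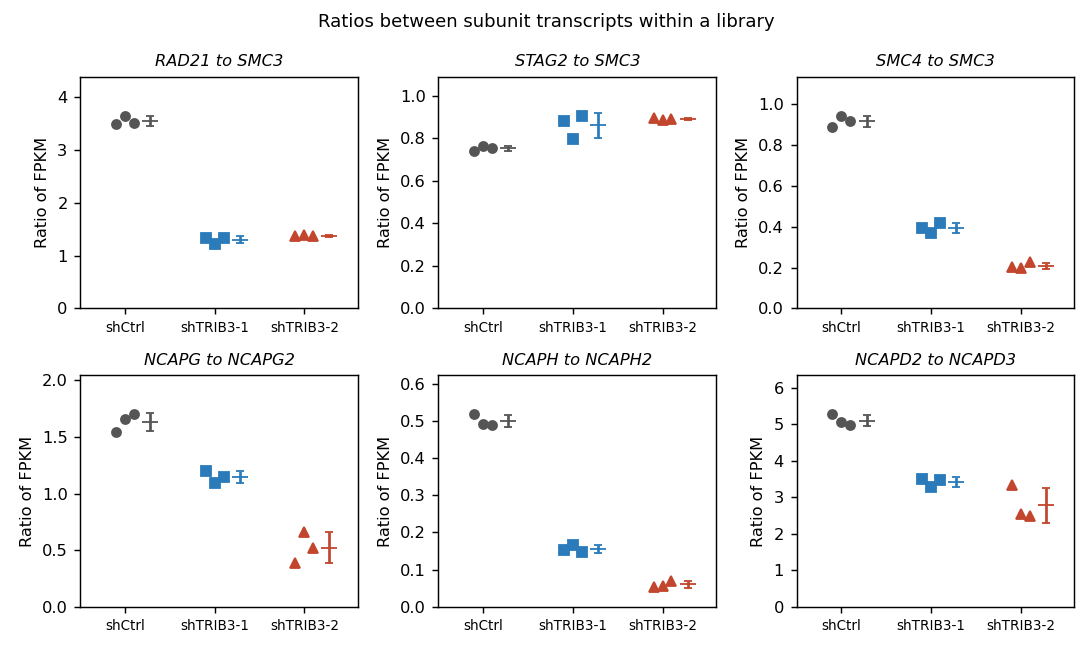
Ratios of FPKM between 2 transcripts within each library, with 1 point per library and the group mean ± SD beside the 3 points of each group, each panel on its own axis from 0. RAD21 to SMC3 drops from 3.55 to 1.30 and 1.38, and NCAPH to NCAPH2 from 0.4999 to 0.156 and 0.06004.

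The proteins that load, release and protect cohesin were examined as a list of 14 genes, all of which were tested. With each hairpin 9 fell, none rose and 5 did not pass, where 41.5% of tested genes fell with shTRIB3-1 and 40.5% with shTRIB3-2. With each hairpin 6 were called, against 6.1% and 6.27% of tested genes. Of the 14, ESCO2 and SGO1 passed the filter through the shCtrl libraries alone and so had to be lower with the hairpins. Both are counted among the 9 that fell and the 6 called, and the medians include them. The median log2 fold change was -0.33 with shTRIB3-1 and -0.41 with shTRIB3-2. The lowest by mean log2 fold change were ESCO2, PTTG1 and CDCA5. ESCO2, the acetyltransferase that locks cohesin on sister chromatids in S phase, is given as a description without a test. PTTG1, the securin that inhibits separase (-1.97 and -3.03), and CDCA5, the sororin that keeps WAPL from releasing cohesin (-1.51 and -3.11), fell with adjusted p values of at most 1.35e-08. ESCO2 was at 3.54 ± 0.186 FPKM in shCtrl, 0.884 ± 0.0557 with shTRIB3-1 and 0.297 ± 0.0486 with shTRIB3-2, where it rested on 37 to 50 fragments per library. Its log2 fold change with shTRIB3-2 was -3.20, and -1.81 with 1 FPKM added before the logarithm. The highest were HDAC8, the cohesin deacetylase (0.03 and 0.02, adjusted p = 0.735 and 0.868), and ESCO1, the acetyltransferase active in interphase (-0.10 and 0.05, adjusted p = 0.139 and 0.437). The sign of HDAC8 turned with TPM rescaling and without single libraries. ESCO1 with shTRIB3-1 was below 0 in all 18 alternatives and passed in 2 of them, with an adjusted p of 0.0383 after TPM rescaling and 0.0471 without shTRIB3-1 replicate 2.

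The SMC5/6 complex, the third SMC complex, which acts in the repair of recombining chromosomes, was examined as a list of 9 genes. Of these 7 were tested, and EID3 and SLF1 were below the filter. With shTRIB3-1, 2 fell, 2 rose and 3 did not pass, and with shTRIB3-2, 2 fell, 1 rose and 4 did not pass, with medians of 0.02 and 0.01. Over all tested genes 41.5% fell and 32.9% rose with shTRIB3-1, and 40.5% fell and 35.4% rose with shTRIB3-2, so nothing is read from the counts of this list. The core ATPases did not pass in either comparison. SMC5 was at 7.86 ± 0.258, 7.52 ± 0.524 and 7.92 ± 0.582 FPKM and SMC6 at 11.8 ± 0.463, 11.9 ± 0.431 and 11.9 ± 0.572 in shCtrl, shTRIB3-1 and shTRIB3-2, with log2 fold changes between -0.06 and 0.02 whose signs depended on the scaling. NSMCE4A, the kleisin of this complex (-0.42 and -0.73), and SLF2, a recruiting factor (-0.54 and -0.39), fell with both hairpins, and NSMCE1, a RING-domain subunit, rose with both (0.41 and 0.47, adjusted p = 3.66e-07 and 8.51e-08). NSMCE2, the SUMO ligase, rose with shTRIB3-1 (0.29, adjusted p = 0.00417) and was at 0.06 with shTRIB3-2 (adjusted p = 0.465). The hairpins differed by -0.23 in NSMCE2 (adjusted p = 0.0285), and this did not pass with no filter (adjusted p = 0.0614), with TPM rescaling (0.0658) or without shTRIB3-1 replicate 2 or 3 or shTRIB3-2 replicate 3 (0.0717 to 0.126). NSMCE3 did not pass (0.04 and -0.12, adjusted p = 0.655 and 0.188).

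Genes that work beside condensin on the mitotic chromosome formed a list of 10, all tested. With shTRIB3-1, 9 fell and 1 rose, against 41.5% and 32.9% of tested genes. The 1 that rose, MCPH1, would not have passed the filter without the shTRIB3-1 libraries, so nothing is read from its rise. With shTRIB3-2, 9 fell, against 40.5%, and 1 did not pass. The medians were -2.004 and -3.348. The lowest were AURKB, the kinase of the chromosomal passenger complex (-2.32 and -4.67), PLK1, a mitotic kinase (-2.26 and -4.003), and KIF4A, a chromokinesin that binds condensin I (-2.18 and -3.63). With shTRIB3-2 AURKB stood on 19 to 43 fragments per library and KIF4A on 76 to 129. Among the alternatives their log2 fold changes with this hairpin shrank to at most -3.405 and -2.665. The highest were TOP2B, the type II topoisomerase that non-dividing cells also express, which fell (-0.41 and -0.48, adjusted p = 6.79e-07 and 1.21e-07), and MCPH1, an inhibitor of condensin II. MCPH1 was near the filter at 0.919 ± 0.0812 FPKM in shCtrl, and passed it through the shTRIB3-1 libraries, at 1.13 to 1.14 FPKM. It is therefore given as a description without a test. Its log2 fold change was 0.28 with shTRIB3-1 and 0.11 with shTRIB3-2. The first of these did not pass in 9 of the alternatives. Among them were the fits without shCtrl replicate 1 or 3, without any of the shTRIB3-1 replicates in turn and without shTRIB3-2 replicate 1.

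**Figure D4:**
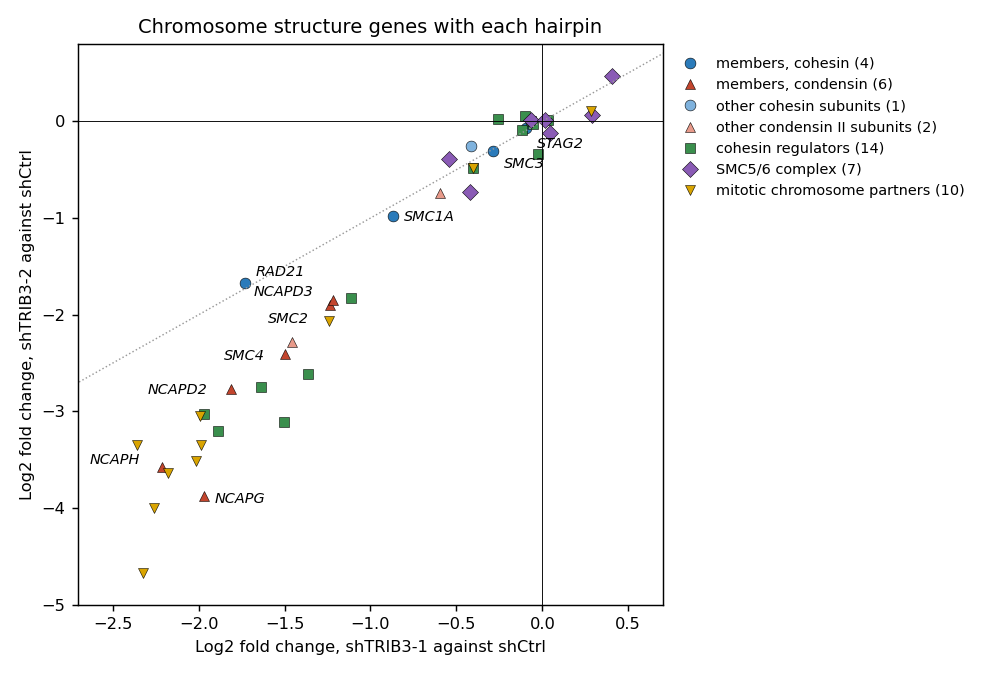
Log2 fold change with shTRIB3-1 (horizontal) and with shTRIB3-2 (vertical) of each tested gene of the 7 lists, whose sizes stand in the legend, with the members named and a dotted line of equal change. Both axes use the same 3 control libraries. The 6 condensin genes lie below the dotted line beside most mitotic partners, RAD21, SMC1A and SMC3 lie near it, and STAG2 lies near 0 on both axes.

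Genes of S phase and of G2 and mitosis, in lists from which the 10 members had been removed, fell with the condensin genes. Of 41 tested S phase genes 39 fell with shTRIB3-1 and 41 with shTRIB3-2, with medians of -1.59 and -2.29. Of 49 G2/M genes 48 and 49 fell, with medians of -1.74 and -2.71. Among all tested genes 41.5% and 40.5% fell. In the S phase list 6 genes passed the filter through the shCtrl libraries alone and so had to be lower, and in the G2/M list none did. Between the hairpins the medians were -0.76 and -0.98, beside -0.93 for the condensin genes and 0.002 for the cohesin genes. The G2/M list shares genes with that of the mitotic partners. In bulk libraries fewer cells in a phase and less RNA per cell cannot be told apart, and the part of the cell cycle genes in these results was not tested.

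The transcripts most like the members were sought over the 9 libraries, by Pearson's correlation with the mean log2 value of the 6 condensin genes or of the 4 cohesin genes. Because 3 groups of 3 libraries dominate such a correlation, it is given as a description. It takes no account of the size of a change. The cohesin mean follows mainly RAD21 and SMC1A, which changed more than SMC3 and STAG2. Nearest to the condensin profile were AURKA (0.999), RCC2 (0.9988), CIT (0.9986), KIF23 (0.9985) and CCNB1 (0.9984), among 184 genes at 0.99 or above. AURKA fell by 1.46 and 2.42 on the log2 scale with shTRIB3-1 and shTRIB3-2, and RCC2 by 0.76 and 1.18. Nearest to the cohesin profile were HMGB1 (0.9978), TFDP1 (0.9977), PARP1 (0.9973), SLC38A5 (0.9969) and DDX3Y (0.9969), among 148 genes at 0.99 or above. HMGB1, an abundant chromatin protein, fell by 1.59 and 1.69, and PARP1, a sensor of DNA breaks, by 0.85 and 0.85, with little between the hairpins.

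Part of the exon sequence of some members also belongs to genes on the opposite strand (GENCODE, GRCh38). The share was 33.7% of exon bases in NCAPG, with LCORL, 22.0% in SMC4, with IFT80 and TRIM59, and 11.9% in NCAPD3, with JAM3 among others. For RAD21 it was 5.89%, for NCAPD2 5.92%, and for SMC2, SMC3 and NCAPH 0. Of NCAPH2 19.2% was shared on each strand. These shares are of all annotated exon bases, which differ from the lengths behind the FPKM. In RAD21 they are 14382 against 3660 bases, and in SMC2 6470 against 8839. The shares therefore need not hold for the counted bases. Whether counting used the strand is not given in the sources used here, so fragments of these stretches may come from either gene.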

How the data were processed

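RNA-seq values came from 9 HepG2 libraries. The deposited values are FPKM per gene symbol, computed by the authors. Their methods name STAR and GRCh38, and the submitters' processing notes name HTSeq and R 3.2.0. The strand setting is not given in the sources used here, and the library kit of the labels differs from that of the methods. The FPKM were whole numbers of fragments within 0.02 for 100% of 172769 values above 0, from which depth and fragment numbers were recovered. Genes with FPKM of at least 1 in at least 3 libraries were fitted as log2(FPKM + 0.1) with limma 3.58.1 in R 4.3.3 (3 group means, mean-variance trend, two-sided p, Benjamini-Hochberg over 11265 genes), and checked on simulated data. A gene passed at an adjusted p under 0.05 and was called with an absolute log2 fold change above 1 as well. FPKM does not correct for composition. The printed 95% intervals come from the limma fit and reflect only the spread among the libraries.

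The members and lists were chosen with earlier results of these data known. The text names TRIB3, the 10 members, STAG1, NCAPG2, NCAPH2, SMC5, SMC6, the 3 lowest and 2 highest genes by mean log2 fold change of 3 lists, and the 5 genes most like each complex. Replicates differed by more than sampling noise (chi-square per degree of freedom 3.13 to 7.54). The count-based DESeq2 of the study's methods was replaced because the values are not counts, with voom on the recovered fragments among 18 alternatives. Sequences came from RefSeq windows and the study's hairpin list. Coordinates are GRCh38.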

Additional observations from a re-analysis of the deposited data

Results flagged for a closer look

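The 6 condensin genes were set apart because the effects of the hairpins differed in a direct test. The log2 difference of shTRIB3-2 against shTRIB3-1 was -0.66 in SMC2 (limma adjusted p = 1.32e-04), -0.91 in SMC4 (adjusted p = 1.43e-06), -0.95 in NCAPD2 (adjusted p = 3.81e-06), -1.90 in NCAPG (adjusted p = 2.22e-08), -1.36 in NCAPH (adjusted p = 1.57e-06) and -0.63 in NCAPD3 (adjusted p = 1.36e-04). In each gene the 3 shTRIB3-2 libraries lay below the 3 shTRIB3-1 libraries. Of all tested genes 20.7% passed in the same direction. TRIB3 differed by -0.71 between the same libraries.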

How the results depend on the processing

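Of 540 values of the members under alternatives, 529 kept their direction and side of the threshold, none was lost, 5 passed newly and 6 changed sign. The members that passed numbered 9 in each comparison with shCtrl (9 to 10 with shTRIB3-1, 9 throughout with shTRIB3-2) and 6 between the hairpins (6 to 7). Of 1119 values of the other named genes, 1063 were unmoved in that sense, 19 no longer passed, 12 passed newly and 25 changed sign.

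Counts of called genes over the whole table moved most. With shTRIB3-1 the 1294 became 780 with log2(FPKM + 1), 745 with a minimum of 5 FPKM and 1999 with no filter. With shTRIB3-2 the 1389 became 888, 801 and 1941 under the same settings. Between the hairpins the 234 became 84, 126 and 417. Fewer or more genes tested is part of the construction of the filters, and the added 1 FPKM shrinks fold changes of low genes.

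The values that changed sign were all small and did not pass. With TPM rescaling, shTRIB3-1 against shCtrl gave -0.03664 in SMC6, -0.02245 in HDAC8 and -0.009772 in NSMCE3, shTRIB3-2 against shCtrl gave -0.01399 in SMC5, -0.0116 in SMC6 and -0.007589 in HDAC8, and the hairpins differed by 0.007857 in SMC3, 0.02504 in SMC6 and 0.01486 in HDAC8. SMC5 with shTRIB3-1 was 0.01648 after median centring and 0.0131 after quantile normalization, and STAG2 between the hairpins -0.002402 and -0.002202. Without single replicates, values with shTRIB3-1 ran from -0.01003 to 0.04942 in SMC6, -0.04591 to 0.1022 in HDAC8 and -0.009529 to 0.09595 in NSMCE3, those with shTRIB3-2 from -0.04847 to 0.05084 in SMC5, -0.01548 to 0.05107 in SMC6 and -0.06112 to 0.087 in HDAC8, and those between the hairpins from -0.07315 to 0.04488 in SMC3, -0.005841 to 0.07223 in STAG2, -0.03291 to 0.03364 in SMC6 and -0.0399 to 0.01788 in HDAC8. The cause was not tested.

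Of genes called with shTRIB3-1, 53.1% were lower, a majority that turned with median centring (45.6%) and with no filter (45.7%) and was 57.9% with TPM rescaling. With shTRIB3-2 50.8% were lower. That majority turned with median centring (46.1%), no filter (47.9%), quantile normalization (48.1%) and without shTRIB3-2 replicate 2 (49.0%). Between the hairpins 86.3% were lower, with 75.4% after quantile normalization and 95.2% with log2(FPKM + 1). TPM rescaling took the median of all tested genes with shTRIB3-1 from -0.06 to -0.11. Same-numbered libraries correlated in their deviations from the group mean at -0.0742 to 0.0933, and other pairs at -0.0756 to 0.0479. Between the hairpins the same-numbered pairs were at 0.0279 to 0.0933 and the others at -0.0756 to 0.0137. Whether the replicate numbers pair the libraries cannot be told from these weak values. A replicate block gave 1295, 1389 and 234 called genes and left 9, 9 and 6 members past the threshold. With it MCPH1, given above as a description, no longer passed with shTRIB3-1, and ESCO1 passed between the hairpins (adjusted p = 0.0365). NCAPG, NCAPH, ESCO2, AURKB and KIF4A with shTRIB3-2 rested on few fragments.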
